A study of Mus musculus with 35 samples.

Results

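The hair keratins, the inner root sheath keratins and the keratin-associated proteins (KAPs) were followed in mouse skin wounds of WT and Col5a1CKO animals. The members were every gene whose symbol starts with Krtap, together with Krt25 to Krt28, Krt31 to Krt36, Krt71 to Krt75 and Krt81 to Krt86, including symbols with a letter suffix. This gave 73 of the 22830 gene symbols in each of the 2 count tables, namely 21 keratins and 52 KAPs, and none was at 0 in every wound of a table. RNA came from punch biopsies of the wound centre, taken as bulk tissue, so that fewer follicle cells and less RNA per cell cannot be told apart. Col5a1CKO animals were Col1a2CreERT:Col5a1 fl/fl, in which tamoxifen deletes Col5a1 in fibroblasts with an active Col1a2 driver, and WT animals were Cre-negative Col5a1 fl/fl littermates that were also wounded and given tamoxifen. The first table was made up of 7 WT and 7 Col5a1CKO wounds at day 14 (replicates a to g), which the labels call wounded and the study describes as given vehicle (PBS) in place of cells, 3 Col5a1CKO wounds that had been injected with WT fibroblasts and collected at day 14 (a to c), and 3 WT and 3 Col5a1CKO wounds at day 19 (2a to 2c). The second table held 4 WT and 4 Col5a1CKO wounds from animals given vehicle and 4 Col5a1CKO wounds from animals given cilengitide, an inhibitor of alpha v integrins, all at day 14. The animals were adults of both sexes on a C57BL/6 background. A treatment label of the 3 Col5a1CKO wounds at day 19 also mentions fibroblasts, whereas their titles do not, and the titles were followed.

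A hair fibre is built by keratinocytes of the follicle. Type I and type II hair keratins pair into filaments in the shaft, and KAPs, which are rich in cysteine or in glycine and tyrosine, fill the space between the filaments and are cross-linked to them through disulphide bonds. The inner root sheath keratins Krt25 to Krt28 and Krt71 to Krt74 form the filaments of the sheath that moulds the growing shaft, and Krt75 marks the companion layer around it. These genes are transcribed in growing (anagen) follicles and are not part of the program of the epidermis between follicles.

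Of the 73 members, 7 were type I hair keratins, 6 type II hair keratins, 4 type I and 3 type II inner root sheath keratins, and 1 was the companion layer keratin. The KAPs were parted by the codons of their coding sequence in the mm9 annotation. Cysteine made up at least 30% of the codons of 15 ultrahigh sulfur KAPs, and glycine and tyrosine together made up at least 35% in 10 others. A group of 18 met neither threshold and is called high sulfur here, although Krtap7-1 in it had 9.20% cysteine and 29.9% glycine and tyrosine codons. For 9 KAPs no coding sequence was matched. Cysteine codons were rarer in the inner root sheath keratins, with medians of 1.98% in type I and 2.04% in type II, than in type I hair keratins, with a median of 6.93%. Of the 66 members with a position in the annotation, 30 lay on chromosome 11, 20 on chromosome 16, 9 on chromosome 15, 5 on chromosome 7 and 2 on chromosome 10. Members therefore lie in clusters of related copies, and reads shared by near-identical KAPs cannot be assigned to a single copy with certainty.

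The first 60 codons of 5 members show how these proteins differ. The inner root sheath keratin Krt25 (chr11:99176830-99184265, minus strand), the hair keratin Krt33a (chr11:99872509-99877526, minus strand), the ultrahigh sulfur KAP Krtap4-1 (chr11:99488543-99489553, minus strand) and the high sulfur KAP Krtap3-1 (chr11:99427341-99427944, minus strand) are given with cysteine codons in capitals. The glycine-tyrosine rich Krtap8-1 (chr16:89487619-89488197, minus strand) is given with glycine and tyrosine codons in capitals. All are exonic coding sequence, 5′ to 3′ on the strand of the gene, and the positions are those of the whole gene in NCBI37/mm9.
Krt25: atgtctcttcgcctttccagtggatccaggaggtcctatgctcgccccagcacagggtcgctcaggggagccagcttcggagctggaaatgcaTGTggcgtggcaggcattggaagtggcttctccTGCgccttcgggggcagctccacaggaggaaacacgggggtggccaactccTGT
Krt33a: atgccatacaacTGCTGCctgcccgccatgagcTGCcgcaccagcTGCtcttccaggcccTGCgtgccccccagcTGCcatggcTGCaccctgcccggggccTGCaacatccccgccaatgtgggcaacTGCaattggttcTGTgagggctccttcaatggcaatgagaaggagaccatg
Krtap4-1: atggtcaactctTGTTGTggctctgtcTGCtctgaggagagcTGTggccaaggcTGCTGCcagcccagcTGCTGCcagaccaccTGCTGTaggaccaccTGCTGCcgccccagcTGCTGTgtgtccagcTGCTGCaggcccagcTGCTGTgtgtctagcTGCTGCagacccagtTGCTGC
Krtap3-1: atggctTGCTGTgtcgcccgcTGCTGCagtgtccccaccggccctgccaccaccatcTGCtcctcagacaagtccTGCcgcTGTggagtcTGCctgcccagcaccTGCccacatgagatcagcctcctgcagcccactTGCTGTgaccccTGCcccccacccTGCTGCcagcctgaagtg
Krtap8-1: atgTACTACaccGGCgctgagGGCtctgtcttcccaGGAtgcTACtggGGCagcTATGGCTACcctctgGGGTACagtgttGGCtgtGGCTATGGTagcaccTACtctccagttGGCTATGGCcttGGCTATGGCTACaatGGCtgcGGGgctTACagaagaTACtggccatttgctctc
Cysteine codons numbered 3 in Krt25, 10 in Krt33a, 22 in Krtap4-1 and 14 in Krtap3-1 within these 60 codons, and glycine or tyrosine codons numbered 28 in Krtap8-1.

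The members also shared a promoter feature that the choice of members did not use. In the 250 bases before the start, the letters TATAAA on either strand were present in 76.56% of 64 member promoters and in 12.6% of 22225 promoters of all genes. On the strand of the gene and 21 to 40 bases before the start, TATAAA was present in 54.69% of member promoters and in 2.21% of all. CTTTGA, the core letters of LEF/TCF sites, was present on either strand in 28.12% of members and 13.04% of all, and in 45.0% of the 20 keratin promoters. CTTTGT was present in 25.0% and 14.93%, and TTTATT, a homeobox-type run, in 23.44% and 16.87%. These are matches of letters in related genes, and none is shown to be a bound site. The 100 bases before the start of 4 members, chosen after the matches were seen as examples of sheath keratins and KAPs that hold the letters, are given with TATAAA in capitals, 5′ to 3′ on the strand of the gene in NCBI37/mm9, for Krt71 (chr15:101573541-101573640), Krt25 (chr11:99184266-99184365), Krtap8-1 (chr16:89488198-89488297) and Krtap4-1 (chr11:99489554-99489653).
Krt71: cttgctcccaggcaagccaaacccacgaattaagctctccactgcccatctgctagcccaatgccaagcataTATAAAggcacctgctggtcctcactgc
Krt25: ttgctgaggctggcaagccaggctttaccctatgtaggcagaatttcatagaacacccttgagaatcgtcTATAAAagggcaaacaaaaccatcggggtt
Krtap8-1: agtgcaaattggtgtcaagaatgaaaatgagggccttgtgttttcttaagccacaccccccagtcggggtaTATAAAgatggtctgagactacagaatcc
Krtap4-1: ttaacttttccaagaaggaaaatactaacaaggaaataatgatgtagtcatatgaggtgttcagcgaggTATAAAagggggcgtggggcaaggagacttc
TATAAA began 28 bases before the start in Krt71, 30 in Krt25, 29 in Krtap8-1 and 31 in Krtap4-1.

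Library totals over named genes ran from 15043531 to 35700337 counts for the day 14 and day 19 series, and the cilengitide table held 51211600 to 68266760 counts per library. Levels are given as counts scaled to library size (CPM) after TMM scaling within a table, and levels were not compared between tables. Col5a1 was between 345 and 2400 CPM in WT and between 171 and 667 CPM in Col5a1CKO wounds at day 14, so that the targeted gene overlapped between genotypes, as it did at day 19 and in the second table. The libraries of the first table fell into 2 sets by the balance of GC-rich and GC-poor genes. Day 14 replicates a to d of WT and a to e of Col5a1CKO formed the lower set, and all remaining wounds the upper one. In the upper set at day 14 the 3 WT wounds carried RNA of the Y-linked gene Ddx3y. The Col5a1CKO wounds f and g carried Xist RNA, at 279 and 741 CPM, as did the 3 fibroblast-injected wounds, at 280 to 555 CPM. Sex and genotype therefore cannot be told apart there between either of these groups and WT. The epidermal genes Krt1, Krt2, Krt5, Krt10, Krt14, Krt77, Krtdap, Ivl, Lor and Flg, of which 9 were found, are summed to describe epidermal RNA in a biopsy. Surface epidermis was not parted from the epithelium of the follicle by this sum.

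The members varied widely among WT wounds at day 14. Their summed level was 86.4 CPM in the lowest of the 7 wounds, 367 CPM in the median and 15490 CPM in the highest, WT f, where they made up 1.3% of all counts. WT g had 3861 CPM, WT e 741 CPM, and WT a to d between 86.4 and 367 CPM. All 73 members had a count in WT f and 71 were over 1 CPM there, whereas 21 to 46 were over 1 CPM in WT a to d. In Col5a1CKO wounds at day 14 the sum was 5.71 CPM in the lowest, 29.2 CPM in the median and 192 CPM in the highest, wound d. The groups overlapped, since Col5a1CKO d was above WT c and WT d. The low wounds still held a few reads of many members, with 44 to 61 of the 73 members detected in Col5a1CKO wounds.

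**Figure D1:**
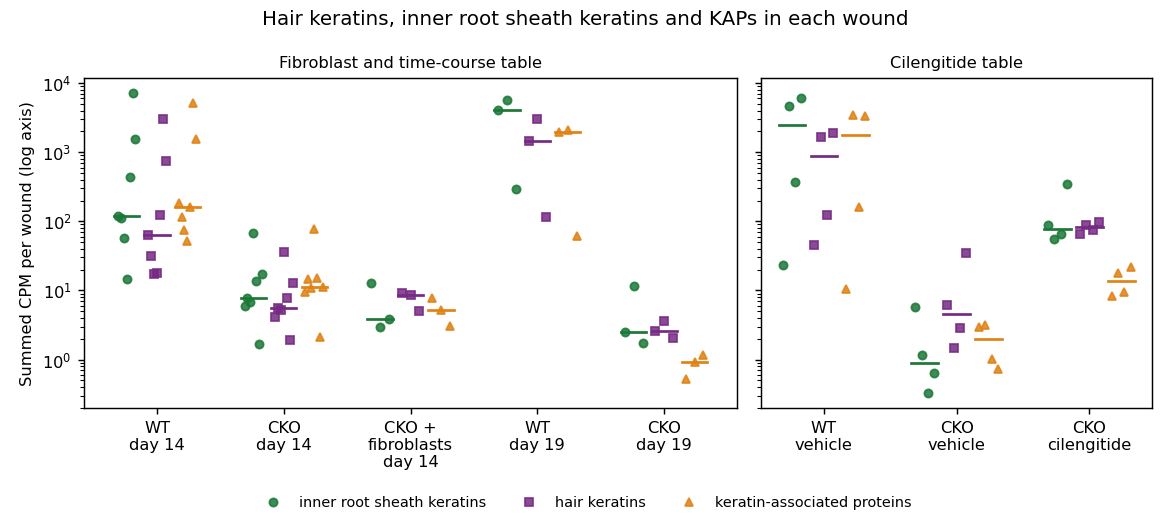
Summed CPM per wound, on a log axis, of inner root sheath keratins (circles), hair keratins (squares) and KAPs (triangles) in each group, with a bar at the median. The 4 Col5a1CKO wounds under cilengitide have inner root sheath keratin sums of 56.3 to 346 CPM against 0.33 to 5.83 CPM under vehicle. The hair keratin sums include Krt85. Under cilengitide Krt85 was at 51.5 to 76.8 CPM, where the hair keratin sums were 65.5 to 96.5 CPM. In Col5a1CKO vehicle wound 4 it was 29.4 of 35.3 CPM.

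Per kilobase of transcript, the inner root sheath keratins led the members. The mean level over the first table was 174 CPM per kb for Krt71, which forms the sheath filaments together with type I partners, 123 for Krt25, 81.5 for Krt27 and 36.9 for Krt28. The highest KAPs were Krtap7-1 at 93.7 CPM per kb and Krtap8-1 at 88.9 CPM per kb. Among hair keratins the leaders were Krt35 at 40.6, Krt33a at 30.7 and Krt31 at 23.6 CPM per kb in type I, and Krt85 at 20.7, Krt81 at 20.2 and Krt86 at 16.4 CPM per kb in type II. Krt35 and Krt85 are the pair that appears first in the hair matrix. The ultrahigh sulfur KAPs were lower, led by Krtap17-1 at 15.0, Krtap4-16 at 12.2 and Krtap4-7 at 11.5 CPM per kb. Krt71, Krt25, Krt27, Krtap8-1 and Krtap7-1 were also the highest members in the second table, with Krt71 at 194 and Krt25 at 132 CPM per kb. Because these means were set by a few WT wounds, neighbouring members in these orders did not differ beyond the spread between wounds.

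The profile over members was alike among the WT wounds with most member RNA and less like theirs in the low ones. The low wounds held few counts of many members, such as 3 of Krtap4-1 in WT b and in WT c. The part of counting noise was not tested. Across the 73 members, log2(CPM + 0.1) in WT g correlated with that in WT f at r = 0.98 and in WT e at r = 0.919, all 3 being libraries of the upper set. For WT a to d, all of the lower set, r with WT f was 0.564 to 0.761, given as a description across genes that share a library. In WT c, for example, Krtap10-10 stood at 5.57 CPM while Krtap4-1 was at 0.22 CPM, and in WT a Krtap10-10 was at 1.55 CPM and Krtap4-1 at 5.12 CPM. In the 2 highest WT wounds at day 14 Krtap4-1 was the higher of the pair, at 150 CPM in WT f and 39.3 CPM in WT g against 77.6 and 16.6 CPM for Krtap10-10.

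The comparison of Col5a1CKO with WT at day 14 asked whether loss of type V collagen in fibroblasts changed the wound tissue. Krt71 was at 5.83 CPM in the lowest, 52.8 in the median and 3312 in the highest WT wound, and at 1.09, 2.56 and 22.5 CPM in Col5a1CKO wounds. Krtap8-1 was at 1.69, 11.2 and 533 CPM in WT and at 0.19, 1.85 and 5.93 CPM in Col5a1CKO wounds. Col5a1CKO d, the highest of its group, was above WT d for Krt71 and above WT c and d for Krtap8-1. Col5a1CKO a, c and e, at 1.85, 1.89 and 2.41 CPM, were also above WT c for Krtap8-1. Every other WT wound was above every Col5a1CKO wound. The log2 fold change (edgeR quasi-likelihood test, Benjamini-Hochberg adjusted) was -6.79 with SE 1.46 for Krt71 (adjusted p = 0.0117) and -5.73 with SE 1.32 for Krtap8-1 (adjusted p = 0.0156). A gene was called changed at an adjusted p under 0.05 and at least a 2-fold difference.

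By that rule 29 of the 35 members tested were lower in Col5a1CKO wounds at day 14 and 0 were higher, where 2.71% of the 14367 genes tested were called lower and 5.57% higher. For 1 of the 73 members every Col5a1CKO wound was below all WT wounds, beside 1.69% of genes tested, and for 0 above, beside 2.31%. The other 38 members did not pass the filter on low counts, and a member could pass it through the WT wounds alone, so that the count describes those members and not the family. The called members were 6 of 6 inner root sheath keratins tested, 8 of 10 hair keratins and 15 of 18 KAPs, and the median over the 35, all of them below 0, was -5.76 on the log2 scale. The smallest adjusted p belonged to Krt26, an inner root sheath keratin, at -5.71 with SE 1.13 (adjusted p = 0.00877), followed by Krtap3-3 at -6.53 with SE 1.32 and Krtap16-10b at -5.65 with SE 1.15. Krt25 was at -5.83 with SE 1.51 and Krt35 at -6.70 with SE 1.57, both called. Krt75 (-2.57, SE 1.40), Krt84 (-2.55, SE 1.26) and Krt85 (-5.09, SE 1.59) were not called, and neither were Krtap3-2, Krtap16-5 and Krtap16-8.

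The 2 library sets gave different counts for this comparison. Within the lower set, with 5 Col5a1CKO and 4 WT wounds, 0 of 33 members tested were called by edgeR, beside 2.92% of all genes called lower, 10 were lower at an unadjusted p under 0.05, and the log2 values, below 0 for 31 of 33, had a median of -1.94. Within the upper set, with 2 Col5a1CKO and 3 WT wounds, 1 of 71 was called lower, beside 0.412% of all genes, 62 were lower at an unadjusted p under 0.05, and the median was -8.67. With the library set as a covariate 6 of 35 were called lower. With the replicate letters as a block, 1 of 35 was. Without WT f and g together, 6 of 34 were called lower, against 29 of 35 with them. No share of all genes is given for these covariate, block and leave-out counts, so how far all calls dropped in those fits is not shown. The epidermal genes summed to 35960 to 169000 CPM in the WT group. Of the Col5a1CKO wounds only g, at 61610 CPM, reached that range, and the others held 38.2 to 28930 CPM. Of 8 epidermal genes tested 1, Ivl, was called lower, beside 2.71% of all genes. Col5a1CKO g, with 61610 CPM of epidermal genes, held 62.0 CPM of members, and WT d, with 41020 CPM, held 86.4 CPM. WT e, f and g, the wounds with most member RNA, also stood apart in other lists. Their fibroblast genes summed to 8462 to 9531 CPM, against 31380 to 128200 CPM in the other day 14 wounds of both genotypes, and their leukocyte genes to 344 to 594 CPM, against 1379 to 5203 CPM. The part of these other cells in the result was not tested.

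At day 19 the WT wounds were uneven as well, and the Col5a1CKO wounds were all low. Krt71 was at 1910, 2270 and 105 CPM in WT 2a, 2b and 2c and at 0.95, 3.39 and 0.63 CPM in the Col5a1CKO wounds. Krt35 was at 272, 887 and 47.1 CPM in WT and at 0.42, 0.87 and 0.10 CPM in Col5a1CKO wounds. Krtap8-1 was at 206, 217 and 6.13 CPM in WT and at 0.16, 0.09 and 0.24 CPM in Col5a1CKO wounds. For these 3 genes every WT wound was above every Col5a1CKO wound, although WT 2c lay far below the other 2.

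At day 19 the genotypes did not overlap for 67 of the 73 members, all lower in Col5a1CKO, whereas this held for 18.5% of the 15135 genes tested. The test called 0 of the 49 members tested by edgeR, with 49 lower at an unadjusted p under 0.05 and a smallest adjusted p of 0.11. Members could pass the filter on low counts through the WT wounds alone, so that these counts describe the members that passed. In this comparison edgeR called 0% of all genes lower and 0.0198% higher. DESeq2 called 49 of the 49 members lower. Without WT 2c, the lowest WT wound, 67 of 70 members were called lower, and with the replicate letters as a block 4 of 49. No share of all genes is given for these DESeq2, leave-out and block counts. Epidermal genes summed to 15120 to 29090 CPM for WT, overlapping the 6849 to 22300 CPM of Col5a1CKO. Melanocyte genes, at 150 to 1661 CPM for WT and 44.8 to 59.3 CPM for Col5a1CKO, and sebaceous gland genes, at 629 to 955 and 268 to 350 CPM, did not overlap, and their part was not tested. The log2 fold change was -9.64 with SE 1.60 for Krt71, -9.61 with SE 1.5 for Krt35, -9.63 with SE 1.63 for Krtap8-1 and -4.54 with SE 1.33 for Krt75. For 17 of the members tested all Col5a1CKO wounds had 0 counts. Against a floor of 3 counts over the group, Krtap15 was then at least 1830-fold lower and Krtap17-1 at least 968-fold lower, and the median over the 49 was -9.30 with such genes at their bound.

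In WT wounds the members did not differ detectably between days. The summed level was 489 to 11050 CPM at day 19 and 86.4 to 15490 CPM at day 14, and edgeR called 0 of the 70 members tested in either direction, with 0 at an unadjusted p under 0.05, where 1.5% of all genes were called higher and 4.25% lower at day 19. Of the 73 members 0 were higher in every wound of day 19 than in every wound of day 14, beside 7.47% of genes tested. DESeq2 also called 0. Krt35 was higher by 2.89 on the log2 scale at day 19 with SE 1.60, and Krtap8-1 by 0.53 with SE 1.48, a direction that turned to -0.59 within the upper library set. Within the upper library set, where 3 wounds of each day can be compared, the median over members was -0.48 instead of 0.66. In Col5a1CKO wounds 1 of 24 members tested was called lower at day 19, beside 3.85% of all genes, while 0 were higher, beside 1.87%. DESeq2 called 13 of 24 lower, with no share of all genes given. Of the 73 members 17 were lower in every wound of day 19 than in every wound of day 14, beside 9.97% of genes tested. That member was Krtap15, with 0 counts in all 3 wounds at day 19, at least 39.1-fold lower than at day 14, and it was not called when any of the 3 wounds was left out or with the library set as a covariate. The difference between genotypes was not shown to differ between days, since the interaction of genotype and day was called for 0 of 71 members by edgeR, with 6 lower at an unadjusted p under 0.05 and a smallest adjusted p of 0.723, while DESeq2 called 2.

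The injection of WT fibroblasts asked whether wild-type cells change the Col5a1CKO wound. The members summed to 35.1, 50.8 and 20.4 CPM in the 3 fibroblast-injected wounds, within the range of 5.71 to 192 CPM in Col5a1CKO wounds without fibroblasts. Krt71 was at 5.56, 1.33 and 1.67 CPM, and Krtap8-1 at 0.03, 0.11 and 0.20 CPM. Krt71 stayed inside the range of the wounds without fibroblasts, and Krtap8-1 was below all of them in a and b and just above the lowest, 0.19 CPM, in c. EdgeR called 0 of 32 members tested, with 10 lower and 0 higher at an unadjusted p under 0.05, and 0% of all genes were called in either direction, while DESeq2 called 1 member lower. Of the 73 members 4 were lower in every fibroblast-injected wound, beside 1.76% of genes tested. The log2 fold change was -1.10 for Krt35 with SE 1.09 and -4.04 for Krtap8-1 with SE 1.16 (adjusted p = 0.365). Within the upper library set the median was 0.35 over 13 members tested, with 0 called, and Krt71 and Krt35 turned to 0.73 and 0.35 there. With the replicate letters as a block, 2 of 15 members tested were called higher and 2 lower. The DESeq2 and block counts have no share of all genes beside them. Summed epidermal genes were 12770 to 29860 CPM in fibroblast-injected wounds and 38.2 to 61610 CPM in those without.

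Against WT at day 14, 7 of 66 members tested were called lower in the fibroblast-injected wounds, beside 2.06% of all genes, and 0 higher, beside 3.77%, and 25 of the 73 were lower in every fibroblast-injected wound than in all WT wounds, beside 10.3% of genes tested, and 0 higher, beside 9.92%. Here too the WT wounds alone could carry a member through the filter, so that the called counts describe the members that passed. The 7 were Krt26 (-8.19, SE 1.85), Krtap14 (-9.00, SE 2.04), Krtap15 (-8.67, SE 1.97), Krtap16-10b (-7.16, SE 1.86), Krtap6-1 (-7.51, SE 1.94), Krtap7-1 (-8.07, SE 2.08) and Krtap8-1 (-9.59, SE 2.46). With any 1 fibroblast-injected wound left out the count was 0, and DESeq2 called 63 of 66. With the library set as a covariate it was 63 of 66, and no share of all genes is given for the leave-out, DESeq2 or covariate counts. Within the upper set, 3 wounds against 3, it was 61 of 63, beside 11.2% of all genes. There the WT wounds carried Ddx3y RNA and the fibroblast-injected wounds Xist RNA, so sex cannot be told apart from genotype and treatment. With the replicate letters as a block, over 3 pairs, 7 of 22 members tested were called, of which 5 were shared with the 7 above, with no share of all genes given. Krt84 and Krt75 did not follow the rest, at -0.62 with SE 1.09 and -0.84 with SE 1.5, neither called, and Krt75 turned to 2.7 with the block.

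The cilengitide table gave a separate view of the genotypes at day 14. Krt71 was at 7.67, 2028, 157 and 2642 CPM in WT vehicle wounds 1 to 4 and at 2.75, 0.48, 0.02 and 0.18 CPM in Col5a1CKO vehicle wounds. Krtap8-1 was at 0.48, 321, 17.4 and 352 CPM in WT and at 0.39, 0.17, 0.00 and 0.09 CPM in Col5a1CKO wounds. Every WT wound was above every Col5a1CKO wound for both genes, but WT wound 1 was close to them, and its summed member level of 90.6 CPM stood against 9848, 678 and 11460 CPM in the other 3. The high WT wounds 2 and 4 carried Ddx3y RNA, at 69.8 and 68.2 CPM, and WT wounds 1 and 3 Xist RNA, at 139 and 167 CPM. Col5a1CKO vehicle wounds 1, 3 and 4 carried Ddx3y RNA, at 122 to 191 CPM, and wound 2 had little of either. The part of sex was not tested. The log2 fold change was -10.5 with SE 2.40 for Krt71 (edgeR, adjusted p = 0.00925) and -10.0 with SE 2.21 for Krtap8-1 (adjusted p = 0.00802).

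Of the 36 members tested in this comparison 34 were lower in Col5a1CKO vehicle wounds, beside 13.4% of all genes, and 0 were higher, beside 17.5%. They were 6 of 6 inner root sheath keratins, 8 of 10 hair keratins, Krt75, and 19 of 19 KAPs. For 28 of the 73 members the genotypes did not overlap, with Col5a1CKO the lower, as for 25.1% of genes tested. As counts were near 0 in Col5a1CKO vehicle wounds for many members, a member could pass the filter through the WT wounds alone. The count of called members therefore describes those that passed and not the family. The members with the smallest adjusted p were Krt73 (-10.9, SE 1.83, adjusted p = 0.00279), Krtap3-2 (-9.26, SE 1.60), Krt35 (-11.3, SE 2.03), Krt28 (-9.94, SE 1.83) and Krt32 (-9.58, SE 1.78). Krt84 (-3.73, SE 1.41) and Krt85 (-3.05, SE 1.60) were the members not called. With WT wounds 2 and 4 left out together 19 of 37 were called lower. The count was 63 without WT wound 1 and 52, 53 and 59 without Col5a1CKO wound 1, 2 or 4, where more members passed the filter. These leave-out counts have no share of all genes beside them. Epidermal genes summed to 62750 to 102200 CPM for WT, against 58.6 to 11920 CPM for Col5a1CKO, and their part was not tested.

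Part of the family was higher in Col5a1CKO wounds under cilengitide than under vehicle. Krt71 was at 37.0, 25.1, 32.8 and 137 CPM in the 4 wounds under cilengitide against at most 2.75 CPM under vehicle. Krt25, its type I partner in the sheath, was at 21.4, 12.8, 15.8 and 86.1 CPM against 1.78, 0.25, 0.11 and 0.00 CPM. Krt35 was at 4.48, 1.10, 0.35 and 17.7 CPM against 0.14, 0.01, 0.00 and 0.00 CPM. For these keratins every wound under cilengitide was above every vehicle wound, and wound 4 was the highest. Cilengitide wounds 1 and 4 carried Ddx3y RNA, at 67.7 and 99.6 CPM, and wounds 2 and 3 Xist RNA, at 187 and 137 CPM. The part of sex was not tested here either. The log2 fold change was 6.07 with SE 1.31 for Krt71 (edgeR, adjusted p = 0.017), 5.97 with SE 1.37 for Krt25 (adjusted p = 0.0204) and 7.14 with SE 1.65 for Krt35 (adjusted p = 0.0204).

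Of 35 members tested 19 were higher under cilengitide, beside 6.48% of all genes, and 0 lower, beside 6.59%. As vehicle counts were near 0 for many members, a member could pass the filter through the cilengitide wounds alone, so that the count describes those that passed. With all 3 groups of the table in one fit, 10 were higher. All 6 inner root sheath keratins tested were called, at 5.78 to 7.23 on the log2 scale, as were Krt75 (4.24, SE 0.92), 5 of 13 hair keratins and 7 of 15 KAPs. The smallest adjusted p belonged to Krt27 (6.2, SE 0.94, adjusted p = 0.00653), Krt73 (7.23, SE 1.25), Krt26 (5.96, SE 1.07) and Krt82, a cuticle keratin (6.42, SE 1.21). Krtap1-4 had 0 counts in all 4 vehicle wounds and was at least 33.1-fold higher under cilengitide, against a floor of 3 counts over the group. The called hair keratins were Krt32, Krt35, Krt81, Krt82 and Krt83, while Krt31 (2.27, SE 1.35), Krt33a (3.05, SE 1.10), Krt33b (2.68, SE 1.06) and Krt34 (2.91, SE 1.25) were not. Krt36, Krt84, Krt85 and Krt86 were also tested and not called. The highest KAPs per unit length were not called either, at 2.42 with SE 0.97 for Krtap8-1 and 2.10 with SE 0.81 for Krtap7-1. Over all 73 members, 32 were higher in every wound under cilengitide than in every vehicle wound, beside 18.1% of genes tested. Leaving out 1 wound gave 15 to 23 called members. No share of all genes is given for these counts or for the fit of all 3 groups.

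**Figure D2:**
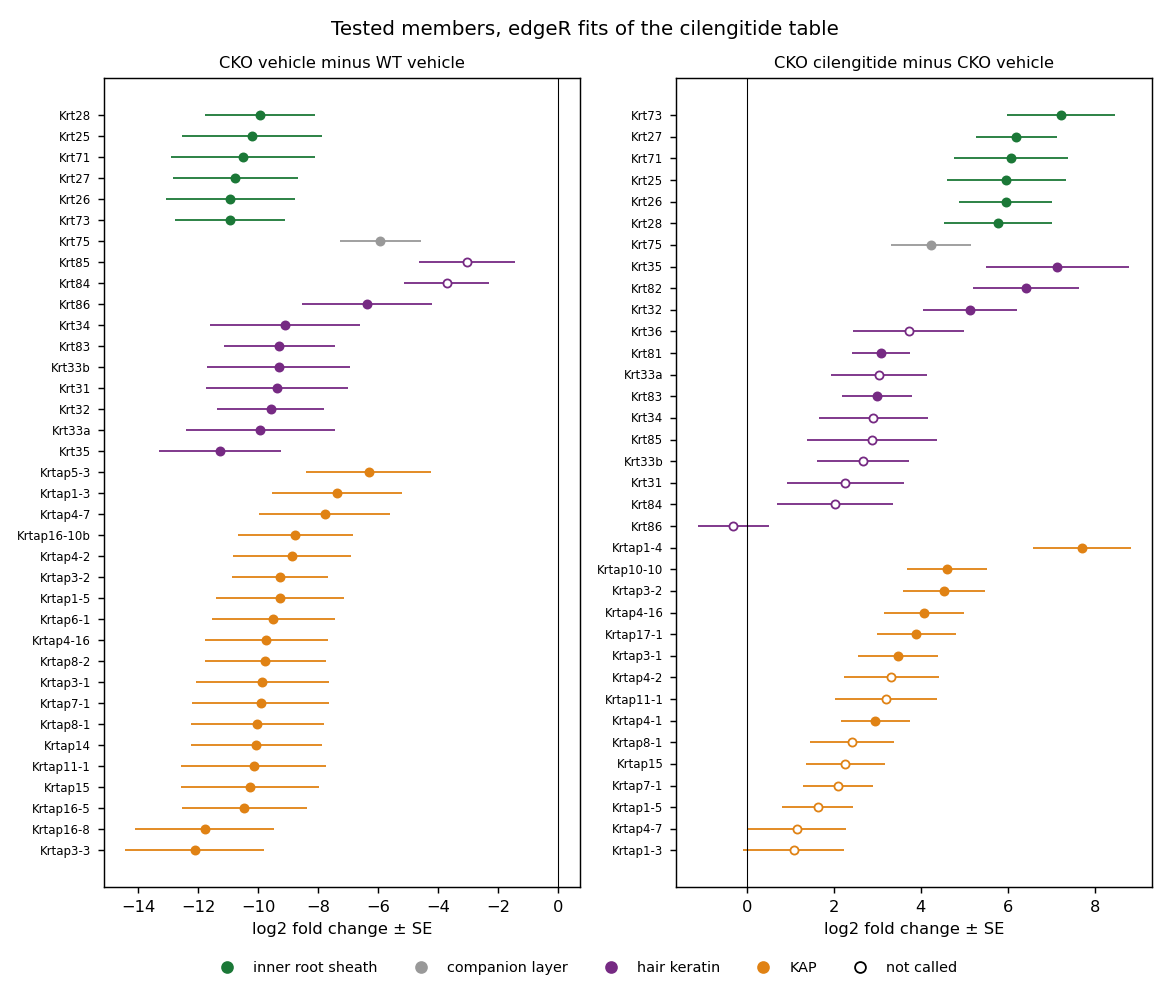
Log2 fold change with SE of each member tested, from edgeR fits of the cilengitide table, for Col5a1CKO vehicle minus WT vehicle (left) and Col5a1CKO cilengitide minus Col5a1CKO vehicle (right), with filled points where the member was called. Inner root sheath keratins lie at 5.78 to 7.23 on the right, and the fitted value of Krtap1-4 is no bound because its vehicle wounds were all at 0.

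The levels under cilengitide remained below those of most WT vehicle wounds. Excluding Krt85, which is described further on, the members summed to 139, 105, 116 and 443 CPM under cilengitide, to 4.45 to 12.1 CPM in Col5a1CKO vehicle wounds, and to 59.2, 9746, 658 and 11350 CPM in WT vehicle wounds. The cilengitide wounds were thus above WT wound 1 and below the other 3. Over the 73 members, 4 were lower in every wound under cilengitide than in all WT vehicle wounds, beside 15.5% of genes tested. In the other direction 0 were higher in every wound, beside 14.5%. Passing the filter was possible through the WT wounds alone, so that the counts of called members describe those that passed. Of 55 members tested against WT vehicle 36 were called lower, beside 3.43% of all genes, and 0 higher, beside 5.15%. These were 0 of 7 inner root sheath keratins, 8 of 13 hair keratins and 28 of 34 KAPs, with medians of -4.20, -6.22 and -6.57. The smallest adjusted p belonged to Krt84 (-1.63, SE 0.29, adjusted p = 0.0193), Krtap16-5 (-8.37, SE 1.78), Krtap16-10b (-7.74, SE 1.66), Krtap16-8 (-8.07, SE 1.80) and Krtap3-2 (-4.76, SE 1.07). The count rested on single wounds, since it was 0 without cilengitide wound 2, 3 or 4, 3 without cilengitide wound 1 or WT wound 4, 5 without WT wound 3, 16 without WT wound 2, and 60 without WT wound 1. For these leave-out counts no share of all genes is given. Krt71 was at -4.40 with SE 1.54 and Krt25 at -4.20 with SE 1.5, neither called.

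The balance between sheath and shaft genes is given as a description. The summed CPM of inner root sheath keratins per summed CPM of KAPs was 10.5, 3.18, 6.91 and 16.0 under cilengitide, 2.18, 1.32, 2.28 and 1.82 in WT vehicle wounds, and 1.98, 0.368, 0.326 and 0.879 in Col5a1CKO vehicle wounds. Every wound under cilengitide was above every other wound of the table, and no test was made of this ratio because it is a score over the members. It rested on 3840 to 21041 sheath counts and 589 to 1314 KAP counts under cilengitide, but on 15 to 341 and 33 to 223 counts in Col5a1CKO vehicle wounds. In the first table the ratio was 0.283 to 2.64 in WT at day 14 and 2.14, 2.74 and 4.74 in WT at day 19, and the highest of the latter was the low wound 2c. In Col5a1CKO wounds at day 19 it was 4.7, 12.5 and 1.5 on 10 to 24 KAP counts.

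**Figure D3:**
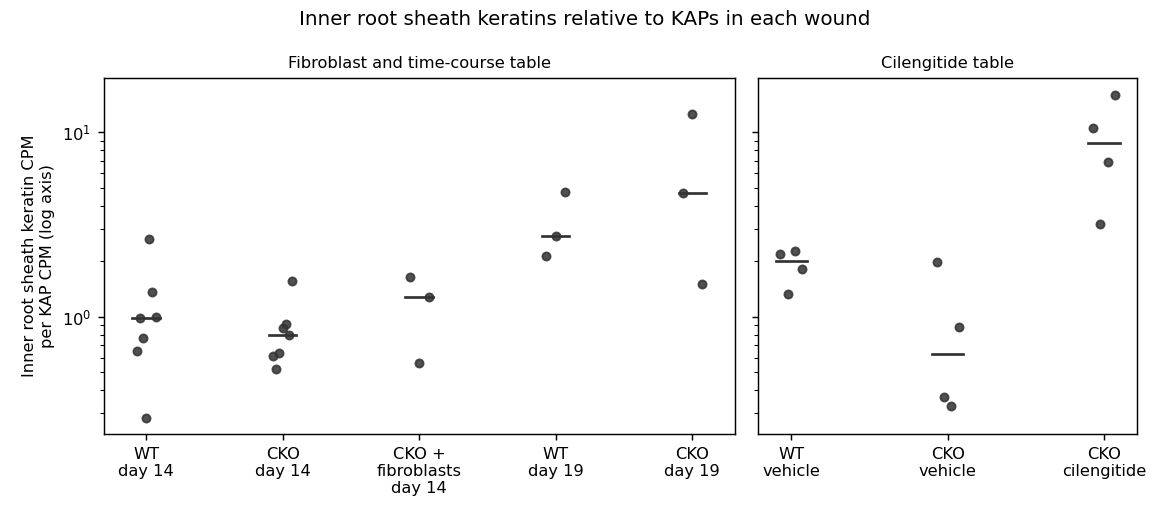
Summed inner root sheath keratin CPM divided by summed KAP CPM in each wound, on a log axis, with a bar at the group median. The 4 wounds under cilengitide sit between 3.18 and 16.0, above the 8 other wounds of that table.

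Krt84, Krt75 and Krt85 departed from the other members. Krt84, a type II keratin that is also known from the tongue and the nail, was at 7.75 CPM in Col5a1CKO wound g and at 6.13, 6.44 and 2.99 CPM in the wounds injected with fibroblasts, inside the WT range of 0 to 22.5 CPM at day 14. Krt75 was at 5.43, 34.1 and 8.43 CPM in the fibroblast-injected wounds and at 20.9 CPM in Col5a1CKO g, while Krtap8-1 was at most 0.40 CPM in these 4 wounds. Against Col5a1CKO wounds without fibroblasts, the log2 fold change after fibroblast injection was 1.82 for Krt84 with SE 1.37 and 1.62 for Krt75 with SE 1.45, neither called, and these were the members with a positive value. These 4 wounds held 12770 to 61610 CPM of epidermal genes.

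Krt85 behaved differently in the 2 tables. In the cilengitide table it stood at 51.5, 76.8, 64.5 and 54.5 CPM under cilengitide and at 29.4 CPM in Col5a1CKO vehicle wound 4, where Krt35, the keratin with which it pairs in the matrix, had 0 counts. In 10 of the 12 wounds of that table the Krt85 count was 0.336% to 0.65% of the summed counts of Krt6a and Krt6b, type II keratins of the companion layer, the outer root sheath and wounded epidermis. The other 2 were WT wounds 2 and 4, the wounds with most hair genes, at 1.3% and 11.2%. In the first table the share had a median of 0.00896% over the 17 wounds in which the members summed to less than 400 CPM, with a range of 0 to 1.14%. Krt85 was not called under cilengitide (2.89, SE 1.49), nor against WT vehicle (-0.11, SE 0.53). How reads that match several type II keratins were counted in the cilengitide table is not given in the sources used here, and the cause was not tested.

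**Figure D4:**
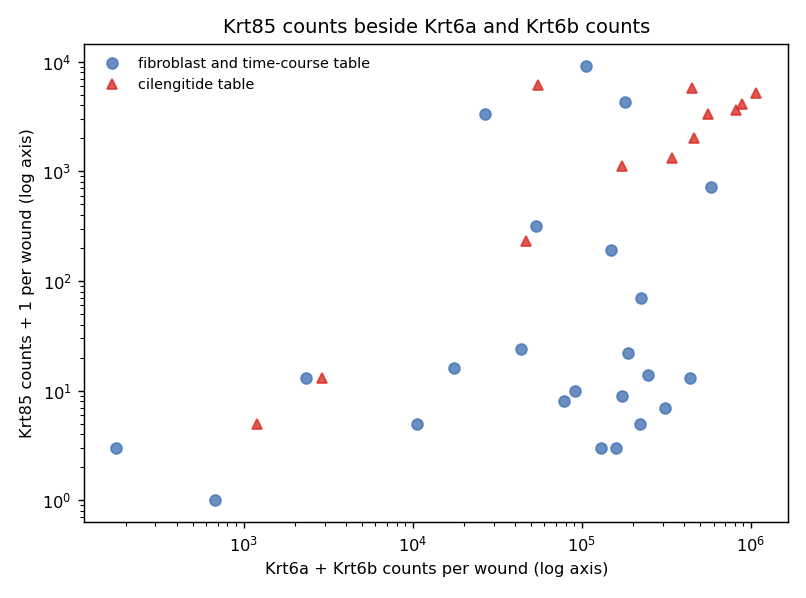
Krt85 counts plus 1 against the summed Krt6a and Krt6b counts of each wound, both on log axes, for the first table (circles) and the cilengitide table (triangles). In 10 of 12 wounds of the cilengitide table Krt85 lies at 0.336% to 0.65% of Krt6a and Krt6b, whereas wounds of the first table scatter without such a ratio.

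Other genes of the hair program were read from lists beside the members. Of 11 further shaft and sheath genes, 3 of 9 tested were lower in Col5a1CKO wounds at day 14, beside 2.71% of all genes. They were Tchh, the trichohyalin of the inner root sheath (-4.71, SE 1.12), S100a3 of the cuticle (-6.26, SE 1.33) and Padi3, which modifies trichohyalin (-3.97, SE 1.20). Of the same list, 7 of 10 were lower in Col5a1CKO vehicle wounds, beside 13.4% of all genes. Under cilengitide 6 of 9 were higher, beside 6.48%, among them Tchh (4.17, SE 0.66) and Padi1 (5.04, SE 0.79). Of 10 regulators of hair keratin genes, 0 were called in Col5a1CKO wounds at day 14, beside 2.71% of all genes lower and 5.57% higher. In Col5a1CKO vehicle wounds 6 were lower, beside 13.4%. These were Hoxc13 (-5.33, SE 1.44), a homeobox factor that acts on hair keratin genes, Lef1 (-4.59, SE 1.25), the partner of beta-catenin, Gata3 (-5.96, SE 0.51), a factor of the inner root sheath, Msx2, Dlx3 and Foxq1. Under cilengitide 2 of the 10 were higher, beside 6.48% of all genes, namely Gata3 (4.36, SE 0.48) and Msx2 (1.79, SE 0.43). No gene of these lists was called between genotypes at day 19, where 0% of all genes were called lower. All 11 shaft and sheath genes and all 10 regulators were below 0 there, with medians of -4.09 and -3.42 on the log2 scale.

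Markers of other cells in the biopsy moved in the same comparisons. Under cilengitide 6 of 9 outer root sheath, bulge and germ genes, 6 of 9 epidermal genes and 5 of 6 sebaceous gland genes tested were higher, 4 of 7 melanocyte genes were higher and 1 lower, and 4 of 5 leukocyte genes were lower. Of all genes 6.48% were called higher and 6.59% lower there. Between Col5a1CKO and WT vehicle wounds 7 of 10, 7 of 9, 5 of 6 and 5 of 7 of these groups were lower, beside 13.4% of all genes. All 5 of 5 leukocyte genes were higher, beside 17.5%. Summed epidermal genes were 33440 to 69010 CPM under cilengitide and 58.6 to 11920 CPM under vehicle. WT vehicle wound 1 held 102200 CPM of epidermal genes and 90.6 CPM of members, and WT wound 2 held 62750 CPM and 9848 CPM. The part of these other cells in the members' changes was not tested.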

How the data were processed

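The members, their classes and the gene lists were chosen with earlier results of these data known. Both tables hold raw read counts per gene, deposited by the authors: strand-specific libraries were read single-end, aligned to mouse mm9 with HISAT2 (version not given in the sources used here) so that reads aligned once, and counted over RefSeq exons with SeqMonk. Whether the cilengitide table was counted in this way is not given in the sources used here. Rows without a gene name (30 in the first table, at most 0.069% of a library, and 1 in the second, at most 0.0002%) were dropped, and of rows sharing a symbol the one with the largest total was kept. The authors' comparison columns were not used. Counts were analysed with edgeR 4.0.16 in R 4.3.3 (filterByExpr with a minimum count of 10, TMM, robust quasi-likelihood fit of the 2 groups compared). SE is the absolute log2 fold change divided by the root of F. DESeq2 1.42.0, other scalings, filters and fits were alternatives, and the code was tested on simulated data. The 69 pairs of replicates were compared and none was identical (chi-square per gene at least 29.9). Labels do not say more than that replicates are separate samples, so p-values measure the spread between them. Replicate letters correlated above 0.1 in 3 of 3 pairs only between fibroblast-injected and WT wounds (r = 0.141 to 0.442, a hint from the data). KAP classes were planned from RefSeq proteins and were set instead from codons of GENCODE coding sequences on NCBI37/mm9, 63 members matched, and 9 members have another symbol in RefSeq now. Named members were the 3 highest per class by CPM per kb, the called members with the smallest adjusted p (up to 5 per direction), members whose call differed from their class, called genes of the follicle lists, and Col5a1. Members and ratios outside that rule were named after their values were seen. Depth limits low members, and floors of 3 counts cover counting error only.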

Additional observations from a re-analysis of the deposited data

Results flagged for a closer look

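Each group of 4 to 10 wounds was screened for a highest or lowest wound far from the others, and the gap to the nearest wound divided by the range of the group is given. Of 65 screens, over class sums, the ratio and 8 single genes picked after their values were seen, 33 passed Dixon's 95% limit. That limit passes about 1 in 20 by chance only where values are normally distributed. The CPM values screened here are skewed over a wide range, so that rate does not hold for them. The screens also share wounds and are not independent. WT wound f at day 14 stood apart with 0.755 for the sum of all members, 0.785 for inner root sheath keratins, 0.761 for hair keratins and 0.713 for KAPs. The same wound gave 0.778 for Krt71, 0.779 for Krt25, 0.744 for Krt35, 0.795 for Krt85, 0.638 for Krt75, 0.723 for Krtap8-1 and 0.687 for Krtap7-1. Col5a1CKO wound d at day 14 stood apart with 0.697 for the sum, 0.764 for inner root sheath keratins, 0.68 for hair keratins and 0.829 for KAPs. It gave 0.807 for Krt71, 0.87 for Krt25, 0.809 for Krt85, 0.613 for Krtap8-1 and 0.832 for Krtap7-1. Col5a1CKO wound g was apart for Krt84, at 0.851, and for the ratio of inner root sheath keratins to KAPs, at 0.626.

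In the cilengitide table, Col5a1CKO vehicle wound 1 was apart for inner root sheath keratins, at 0.851, Krt71, at 0.834, Krt25, at 0.859, and Krt35, at 0.898. Col5a1CKO vehicle wound 4 was apart for Krt85, at 0.868, for Krt84, at 0.912, and for hair keratins, at 0.86, where Krt85 made up 29.4 of the 35.3 CPM. Cilengitide wound 4 was apart for the sum of all members, at 0.968, inner root sheath keratins, at 0.892, Krt71, at 0.894, and Krt25, at 0.883.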

How the results depend on the processing

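Over the alternatives, 210 log2 values of named members gave 2716 further values, of which 2174 kept direction and side of the threshold, 305 lost the call, 169 gained one and 68 turned direction, and the cause was not tested. The within-set fits and the fits without several wounds were chosen after seeing the data. A share of all genes called is given only for the main edgeR fits and some within-set fits. Counts from DESeq2 and the other fits have no such share beside them. Between genotypes at day 14, 29 members called lower became 50 without the filter on low counts, 67 with all groups in one fit, 1 with the replicate block, 6 with the library set as a covariate, 0 and 1 within the lower and upper set, 6 without WT f and g, and 20 to 37 leaving out 1 wound. At day 19, 0 became 49 by DESeq2, 4 with the block, and 0 to 67 leaving out 1 wound. Between Col5a1CKO wounds with and without fibroblasts, 0 became 1 lower by DESeq2 and 2 higher and 2 lower with the block. Between fibroblast-injected and WT wounds, 7 became 63 by DESeq2, 52 with all groups in one fit, 63 with the covariate, 61 within the upper set and 0 leaving out 1 fibroblast-injected wound. Between days in Col5a1CKO, 1 became 13 by DESeq2 and 0 with all groups in one fit, with the covariate, within the upper set and leaving out 1 day 19 wound, the day 14 wounds not being left out. The difference between days gave 2 by DESeq2 in place of 0. Between vehicle groups, 34 became 63 without the filter, 54 with all groups in one fit, 19 without WT 2 and 4, and 32 to 63 leaving out 1 wound. Under cilengitide, 19 became 10 with all groups in one fit and 15 to 23 leaving out 1 wound, and 36 lower than WT became 0 to 60. Replicate letters correlated above 0.1 in 5 of 7 pairs between genotypes at day 14 (r = -0.447 to 0.573) and in 0 of 3 at day 19. These values do not decide whether the letters mark pairs there, and the labels do not say so. No paired analysis was possible for the cilengitide table because no number in its labels is shared between groups. The titles give each wound a number of its own, some of them adjacent across groups, and no label says what adjacent numbers share.

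Values that turned direction are log2 fold changes. Within the lower library set, between genotypes at day 14, the value turned to Krt75 0.81 and Krt85 0.67. With the replicate letters as a block, between Col5a1CKO wounds with and without fibroblasts, the value turned to Krt27 0.59. With the library set as a covariate, between Col5a1CKO wounds with and without fibroblasts, the value turned to Krtap7-1 0.017, Krtap11-1 0.070, Krt35 0.29, Krt25 1.08, Krt28 0.49, Krt86 0.30 and Krt71 0.66. Within the upper library set, between Col5a1CKO wounds with and without fibroblasts, the value turned to Krtap7-1 0.083, Krt35 0.35, Krt25 1.16, Krt28 0.56, Krt86 0.36 and Krt71 0.73. With the replicate letters as a block, between fibroblast-injected and WT wounds, the value turned to Krt75 2.70 and Krt86 0.26. With library size only, between days in WT, the value turned to Krtap3-1 0.44. With the library set as a covariate, between days in WT, the value turned to Krtap8-1 -0.59, Krtap8-2 -0.54, Krtap16-5 -0.90, Krtap7-1 -0.47, Krt33a -0.18, Krt27 -0.28, Krt81 -0.25, Krt86 -0.37, Krtap4-16 -0.81, Krtap4-7 -0.95, Krtap15 -0.56, Krtap22-2 -0.43 and Krtap14 -0.57. Within the upper library set, between days in WT, the value turned to Krtap8-1 -0.59, Krtap8-2 -0.54, Krtap16-5 -0.90, Krtap7-1 -0.46, Krt33a -0.18, Krt27 -0.27, Krt81 -0.25, Krt86 -0.36, Krtap4-16 -0.81, Krtap4-7 -0.95, Krtap15 -0.56, Krtap22-2 -0.43 and Krtap14 -0.56. With the library set as a covariate, between days in Col5a1CKO, the value turned to Krt75 -0.87, Krt35 1.16, Krt25 0.95, Krt85 1.69 and Krt73 0.78. Within the upper library set, between days in Col5a1CKO, the value turned to Krt75 -0.76, Krt25 1.05, Krt85 1.79 and Krt73 0.89. Leaving out 1 day 19 wound gave, between days in Col5a1CKO, -0.74 to 1.005 for Krt28, -1.04 to 0.27 for Krt35, -1.84 to 0.0028 for Krt73, -1.35 to 0.67 for Krt75 and -0.90 to 0.0088 for Krt85. Leaving out 1 fibroblast-injected wound gave, between Col5a1CKO wounds with and without fibroblasts, -1.74 to 0.16 for Krt28. Leaving out 1 wound gave, between cilengitide and WT vehicle, -0.39 to 0.28 for Krt85. Leaving out 1 day 19 wound gave, between days in WT, -0.52 to 0.78 for Krtap16-5, -0.69 to 0.53 for Krtap3-1, -0.066 to 0.91 for Krtap4-16, -0.46 to 0.75 for Krtap4-7 and -0.017 to 1.10 for Krtap8-2.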
